A study of Homo sapiens with 8 samples.

Results

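HOX genes encode homeodomain transcription factors that assign position along the body axis. In humans they sit in 4 clusters, HOXA, HOXB, HOXC and HOXD, on separate chromosomes. Within a cluster the genes are numbered by paralog group, from group 1 at the 3′ end, expressed towards the head, to group 13 at the 5′ end, expressed towards the tail. Polycomb proteins keep silent HOX genes repressed, Trithorax proteins such as KMT2A keep active ones on, and retinoic acid opens the clusters from the 3′ end. In the female tract posterior HOX genes mark regional identity, and their misexpression is known in ovarian carcinoma.

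The genes described here are those whose symbol is HOX followed by the cluster letter and paralog number and that have a probe set with a single gene symbol. They were 27 of the 18417 genes with such a probe set, and each was read by 1 probe set. They comprised HOXA2 on chromosome 7, 10 HOXB genes on chromosome 17, 7 HOXC genes on chromosome 12 and 9 HOXD genes on chromosome 2. HOXC4 and HOXC6 share a probe set with several symbols and were not members. The HOXA cluster is represented by HOXA2 alone, so its posterior genes, and further HOX genes, were not analysed here. Probes of paralogous or overlapping HOX transcripts can detect each other's RNA, so changes of neighbouring genes are uncertain to that extent.

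RNA came from the human ovarian carcinoma line A2780 and from A2780CP20, a subline known for cisplatin resistance, on Affymetrix Human Gene 1.0 ST arrays. There were 4 groups of 2 arrays: the parent line and the subline without treatment, and the parent line under temsirolimus, either for 24 h or for 48 h. Temsirolimus, an ester of rapamycin, is an mTORC1 inhibitor. All cells were grown in RPMI with fetal bovine serum, the drug stock was in DMSO, no dose is given in the sources used here, and the control label names no vehicle. Values are deposited log2 intensities. A change is the log2 difference between 2 group means, given ± its standard error from 1 limma fit to all arrays (n = 2 arrays per group). A gene was called when its Benjamini-Hochberg adjusted p over all 18417 genes was under 0.05. The labels do not say whether the arrays of a group came from separate cultures. The p-values therefore cover the spread among these samples alone, and that spread may be technical.

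Array medians lay between 6.66 and 6.72. The arrays of a group correlated across genes at 0.991 (A2780CP20) to 0.997, and the SD of the difference between them was 0.287 for A2780CP20 and 0.166 to 0.181 elsewhere. The arrays labelled 24 h were unlike all others. Of 10 fibroblast and stromal markers 9 were lower there than in untreated A2780 and none was higher, with a mean level over the list of 7.39 and 7.38 on their arrays against 9.74 and 9.75. The matrix gene LUM, for example, went from 11.30 to 5.90 on average. The mean level was 9.39 on both A2780CP20 arrays, where 5 of the 10 were lower and 1 higher than in A2780. It was 9.70 and 9.71 at 48 h, where none was called by limma and 2 had an unadjusted p under 0.05. Of all 18417 genes, 2043 had such a p at 48 h. Against untreated A2780, 30.1% of all genes were called at 24 h, 15.3% lower. The shares were 18.4% in A2780CP20, 12.0% lower, and 0.179% at 48 h. EPCAM and KRT18, of 17 ovarian carcinoma markers, were higher on the arrays labelled 24 h, while SOX17 was lower. ESR1 was called lower from a level that was dim in both groups. Of the 17, 11 were above the reference for dim signal on both arrays of untreated A2780, and 10 in each other group. CDH1, MUC16 and CLDN4 were not above it on both arrays of any group. No marker is at 0 on this scale. The part of these differences in the HOX results, and a possible exchange of labels, was not tested, so the HOX changes below belong to the arrays as labelled.

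The reference for dim signal was the 95th percentile of 341 olfactory receptor genes on each array, between 5.97 and 6.18. By this measure 20 of the 27 HOX genes were bright on all 8 arrays, among them all 10 HOXB genes. HOXA2, HOXD3, HOXD8, HOXD10 and HOXD12 were not above it on any array. HOXD11 was above it on 4 arrays. HOXC11 was above it on 6 arrays and fell under it on those labelled 24 h. A gene is called dim here in a group where neither array was above the reference. Where 1 group of a comparison was dim, the fold is given as a lower bound, with the dim group set to the reference or to its own level where that was higher.

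On the arrays labelled 24 h the 5′ end of the HOXC cluster was lower by several-fold, HOXB13 was also lower, and a run of central and posterior HOXB genes was higher. Against untreated A2780, 11 of 27 HOX genes were called by limma, 4 higher and 7 lower. Of all genes, 30.1% were called, 14.9% higher and 15.3% lower. The median change of the HOX genes was -0.10, against 0.01 for all genes. At least 2-fold changes were called for 5 HOX genes, against 6.41% of all genes.

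HOXC11, a posterior gene of the developing limb and hindgut, measured 9.48 and 9.47 in untreated A2780 and 9.21 and 9.40 in A2780CP20. It measured 5.57 and 5.78 at 24 h, and 10.02 and 10.00 after 48 h. The arrays labelled 24 h lay far below the other 6, which held a narrow range. Its change from untreated A2780 was -3.80 ± 0.11 as measured (adjusted p = 5.43e-08), the largest change among the 27 genes. Since the level at 24 h was dim, this is at least 10.8-fold lower.

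HOXC12, its neighbour, measured 10.07 and 10.05 in untreated A2780 and 9.97 and 10.17 in A2780CP20. It measured 7.62 and 7.49 at 24 h, and 10.57 and 10.25 after 48 h. HOXC13, which controls keratin genes of hair and nail and lies at the 5′ end of the cluster, measured 10.24 and 10.17, 10.18 and 10.26, 7.59 and 7.62, and 10.33 and 10.23 in the same order. In both genes the arrays labelled 24 h did not overlap any other group. HOXC12 fell by 2.51 on the log2 scale (standard error 0.13, adjusted p = 1.62e-06) and HOXC13 fell by 2.60 (standard error 0.09, adjusted p = 1.84e-07).

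HOXC10, the next gene towards the 3′ end, was not called. It measured 9.49 and 9.53 in untreated A2780 and 9.37 and 9.45 at 24 h, a change of -0.10 ± 0.11 (95% interval -0.35 to 0.15, adjusted p = 0.565). Further along, HOXC9 fell by 0.46 (adjusted p = 0.0113) and HOXC5 by 0.74 (adjusted p = 0.00278). HOXC8, an axial patterning gene of the trunk, was at -0.52 ± 0.32 (adjusted p = 0.277). The call of HOXC9 ended when A2780 untreated replicate 2 was left out (adjusted p = 0.0785) and when replicate 1 of the 24 h group was (0.0929). HOXC8 was called when either A2780CP20 array was left out of the fit, at an adjusted p of 0.00158 without either, and the A2780CP20 arrays differed by 1.28 in this gene.

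**Figure D1:**
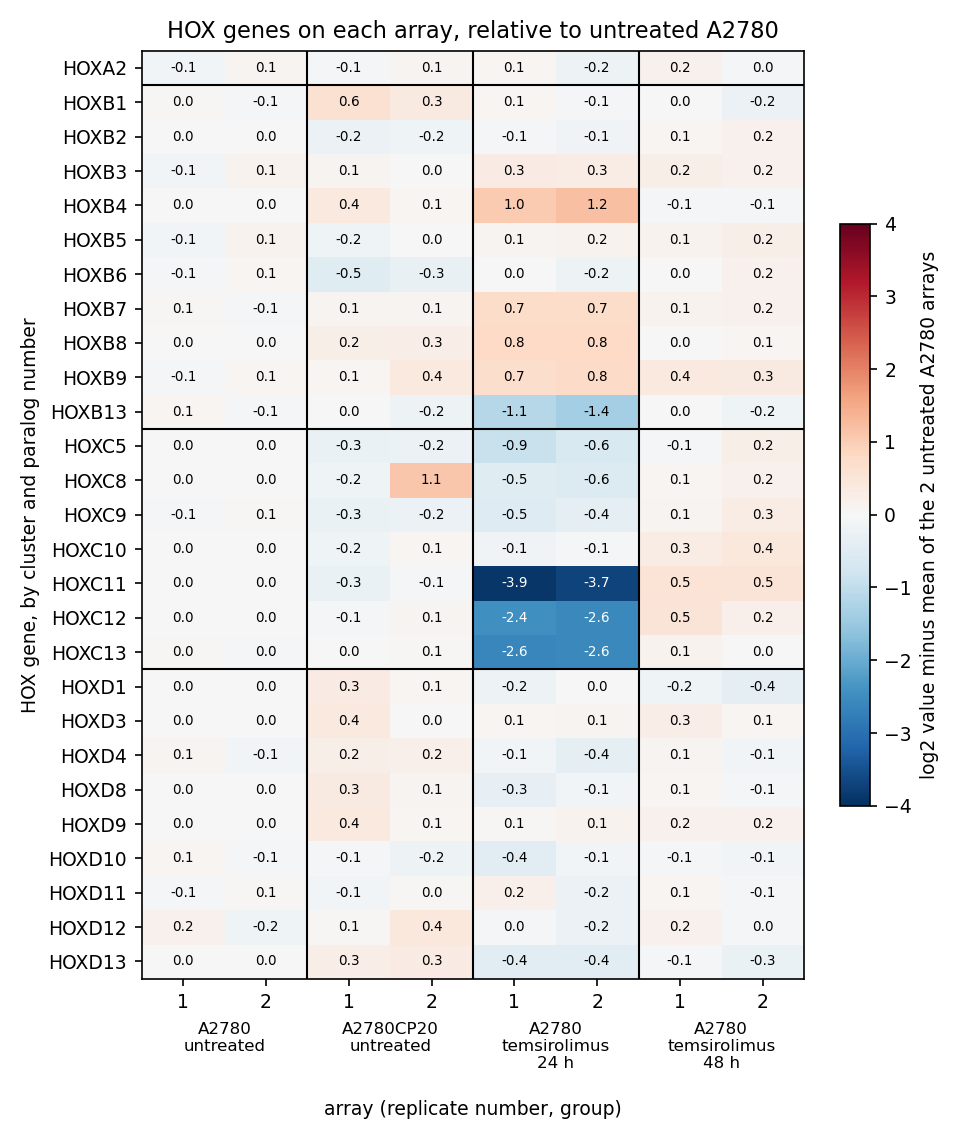
Heat map of the 27 HOX genes (rows, by cluster and paralog number) on the 8 arrays (columns, replicate number within each group). Colours and printed numbers are the log2 value minus the mean of the untreated A2780 arrays, on a scale from -4 to 4. HOXC11, HOXC12 and HOXC13 are the darkest cells, on the arrays labelled 24 h, and HOXC8 stands out on A2780CP20 replicate 2.

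The HOXB cluster moved in both directions. HOXB4, known for its part in blood stem cell self-renewal, measured 7.66 and 7.61 in untreated A2780 and 8.02 and 7.72 in A2780CP20. It measured 8.68 and 8.85 at 24 h, and 7.58 on both arrays after 48 h. The arrays labelled 24 h were above all others, and its change from untreated A2780 was 1.13 ± 0.12 (2.19-fold higher, adjusted p = 0.000149). HOXB13, the posterior member known from prostate development, measured 8.79 and 8.63, 8.71 and 8.52, 7.57 and 7.34, and 8.72 and 8.54 in the same order. It was lowest on the arrays labelled 24 h, with no overlap, and fell by 1.25 (standard error 0.12, adjusted p = 0.000107).

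Between these lay 3 adjoining genes that rose. HOXB7 went from 8.24 and 8.12 to 8.90 and 8.91 at 24 h (0.73 ± 0.09, adjusted p = 0.000365), HOXB8 from 7.53 and 7.57 to 8.36 and 8.34 (0.80 ± 0.09, adjusted p = 0.000179) and HOXB9 from 9.34 and 9.48 to 10.10 and 10.17 (0.73 ± 0.12, adjusted p = 0.00177). In none of them did the arrays labelled 24 h overlap with untreated A2780, but that held for 20 of the 27 HOX genes. HOXB1, HOXB2, HOXB5 and HOXB6 changed by between -0.11 and 0.12 and were not called. HOXB3 was at 0.30 ± 0.11 (adjusted p = 0.0616) and was called without A2780 untreated replicate 2 and without either A2780CP20 array (adjusted p = 0.0364, 0.046 and 0.046).

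The HOXD cluster differed little. Only HOXD13, which patterns the digits, was called among its 9 genes. It measured 7.67 and 7.66 in untreated A2780 and 7.24 and 7.22 at 24 h and fell by 0.43 (standard error 0.10, adjusted p = 0.00973). That call ended when any of the 4 arrays compared was left out (adjusted p = 0.0505 to 0.0632). The other 8 HOXD genes lay between -0.27 and 0.10, and HOXA2, a hindbrain and second arch gene, was at -0.07 ± 0.14. HOXA2, HOXD3, HOXD8, HOXD10 and HOXD12 were dim on every array, so their values describe the intensity only. By paralog class, 6 of 12 posterior genes (groups 9 to 13) were lower and 1 higher, 3 of 9 central genes (groups 4 to 8) were higher and 1 lower, and none of 6 anterior genes (groups 1 to 3) was called by limma, with 1 at an unadjusted p under 0.05. Of all genes, 30.1% were called in this comparison, 14.9% higher and 15.3% lower. An unadjusted p under 0.05 was found for 7208 of all 18417 genes. The dim genes are counted in these classes, and the difference between the classes was not tested.

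**Figure D2:**
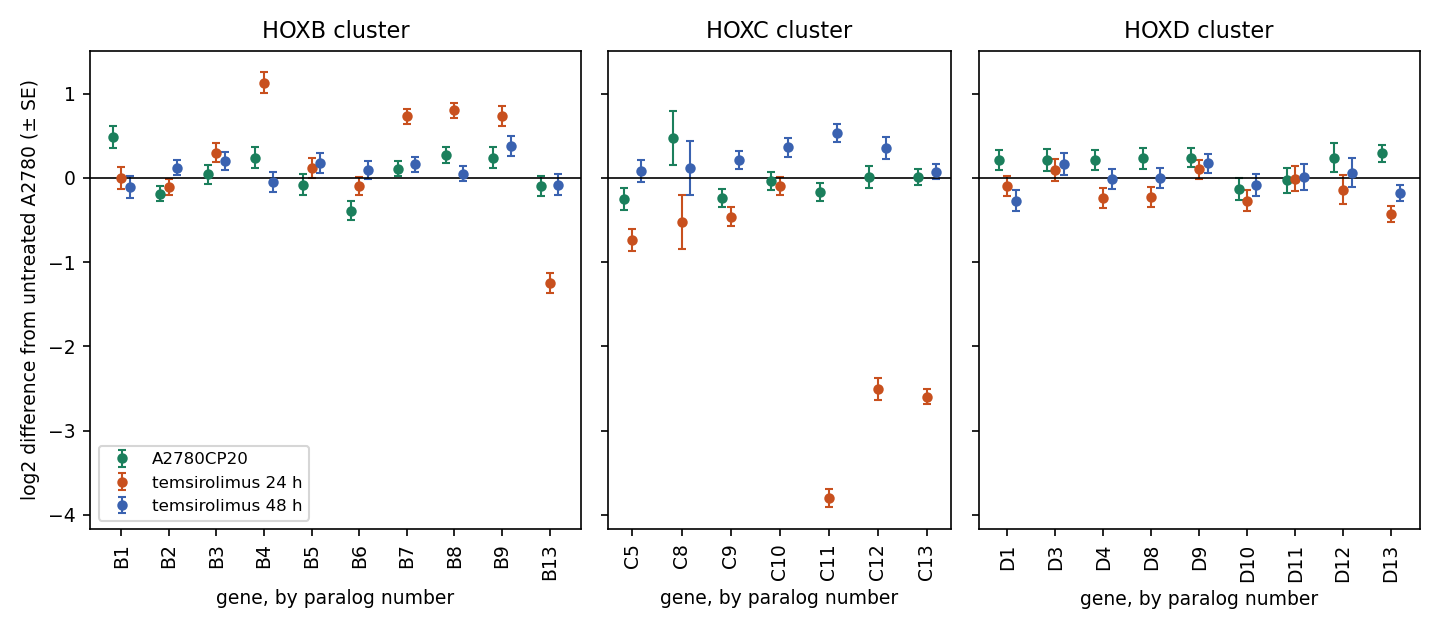
Log2 difference from untreated A2780 (points) with the standard error of the limma fit (bars) for each gene of the HOXB, HOXC and HOXD clusters, in order of paralog number, for A2780CP20 and for temsirolimus at 24 h and 48 h. At 24 h HOXC11 to HOXC13 lie between -3.80 and -2.51 while HOXC10 lies at -0.10, and HOXB4 and HOXB13 lie on opposite sides of 0.

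Promoters were read from a table of RefSeq sequences of build GRCh38.p14, in which 11 of the 27 genes were matched. HOXC5 and HOXD13, both lower on the arrays labelled 24 h, and HOXB1, which was higher in A2780CP20, are shown because they are the called genes of these 2 comparisons with an entry. Each sequence is the 250 bases before the annotated start, 5′ to 3′ on the strand of the gene. Capitals mark TAAT on either strand, the core that homeodomains bind, or in HOXD13, which has no TAAT, overlapping matches to TATAAA on both strands. The HOXC5 window is also that of HOXC4, since both genes have a transcript with the same start.
HOXC5, chr12:54016638-54016887, + strand: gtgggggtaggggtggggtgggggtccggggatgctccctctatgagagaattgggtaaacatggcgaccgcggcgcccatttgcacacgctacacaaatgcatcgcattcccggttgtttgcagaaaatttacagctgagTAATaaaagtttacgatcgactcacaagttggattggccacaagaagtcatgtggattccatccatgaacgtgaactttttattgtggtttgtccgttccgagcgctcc
HOXD13, chr2:176092471-176092720, + strand: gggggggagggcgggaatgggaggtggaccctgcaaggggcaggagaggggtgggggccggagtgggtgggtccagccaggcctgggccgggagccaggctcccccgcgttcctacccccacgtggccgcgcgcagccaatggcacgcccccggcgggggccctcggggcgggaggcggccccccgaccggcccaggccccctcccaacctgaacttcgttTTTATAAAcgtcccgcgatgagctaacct
HOXB1, chr17:48531012-48531261, - strand: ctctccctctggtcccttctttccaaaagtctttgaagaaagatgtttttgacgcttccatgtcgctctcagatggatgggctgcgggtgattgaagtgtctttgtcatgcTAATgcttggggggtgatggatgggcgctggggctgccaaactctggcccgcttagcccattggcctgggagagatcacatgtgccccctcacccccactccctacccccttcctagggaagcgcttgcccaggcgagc
A TAAT was present in 9 of the 11 HOX promoters and in 47.4% of 35116 promoter windows of the same length. The sequence TGATNNAT, on either strand, the form in which PBX and HOX proteins bind together, was present in 3 of 11 and in 6.47%. TATAAA was present in 1 of 11 and in 10.7%. A match is a run of letters, and binding was not measured.

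At 48 h of temsirolimus no HOX gene was called by limma (0 of 27), and 4 had an unadjusted p under 0.05. So did 2043 of all 18417 genes, and whether the HOX share differs from that was not tested. Of all genes, 0.179% were called, 0.163% higher and 0.0163% lower, and 0.0652% with at least a 2-fold change. HOXC11 was at 0.53 ± 0.11 (1.45-fold higher, adjusted p = 0.135), HOXB9 at 0.38 ± 0.12 (adjusted p = 0.307), HOXC10 at 0.36 ± 0.11 (adjusted p = 0.299) and HOXC12 at 0.35 ± 0.13 (adjusted p = 0.378). In these 4 genes both arrays at 48 h lay above both untreated arrays. That does not set them apart, since 15 of the 27 HOX genes had no overlap between these groups in either direction. The share of all genes without overlap is not given, here or for the other comparisons. The median change was 0.08, against -0.03 for all genes, and all 7 HOXC genes had a difference above 0 that did not pass the test. The 95% intervals of all 27 genes lay between -0.61 and 0.86 as measured, inside a 2-fold change in either direction. In the 5 genes that were dim on every array they bound the intensity only.

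The difference between the drug times was tested directly. At 48 h against 24 h, 10 of 27 HOX genes were called, 7 higher and 3 lower, where 31.0% of all genes were called, 15.2% higher and 15.7% lower. Changes of at least 2-fold were called for 5 HOX genes, against 6.48% of all genes. This comparison shares its arrays labelled 24 h with the one above, so the same arrays carry both results. HOXC11 was at least 15.7-fold higher at 48 h (4.33 ± 0.11 as measured, adjusted p = 2.65e-08), HOXC12 7.24-fold higher (2.85 ± 0.13, adjusted p = 7.23e-07) and HOXC13 6.39-fold higher (2.67 ± 0.09, adjusted p = 1.4e-07). HOXB13 was higher by 1.17 ± 0.12 and HOXB4 lower at -1.18 ± 0.12, with HOXB7 at -0.57 ± 0.09 and HOXB8 at -0.75 ± 0.09.

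HOXC10 was called in this comparison (0.46 ± 0.11, adjusted p = 0.0129), although it was not called at either time against untreated cells. Its arrays measured 9.37 and 9.45 at 24 h and 9.82 and 9.92 at 48 h. The call ended when replicate 1 of the 24 h group (adjusted p = 0.0869) or replicate 2 of the 48 h group (0.0922) was left out. HOXB9 was at -0.35 ± 0.12 (adjusted p = 0.052) and was called without either A2780CP20 array (adjusted p = 0.0133). It was called under 7 of 17 alternatives in all, among them quantile normalization (0.0314) and the compared groups alone in the fit (0.0149). HOXC5 and HOXC9 were higher at 48 h, by 0.82 ± 0.13 and 0.66 ± 0.11. No HOXD gene was called.

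**Figure D3:**
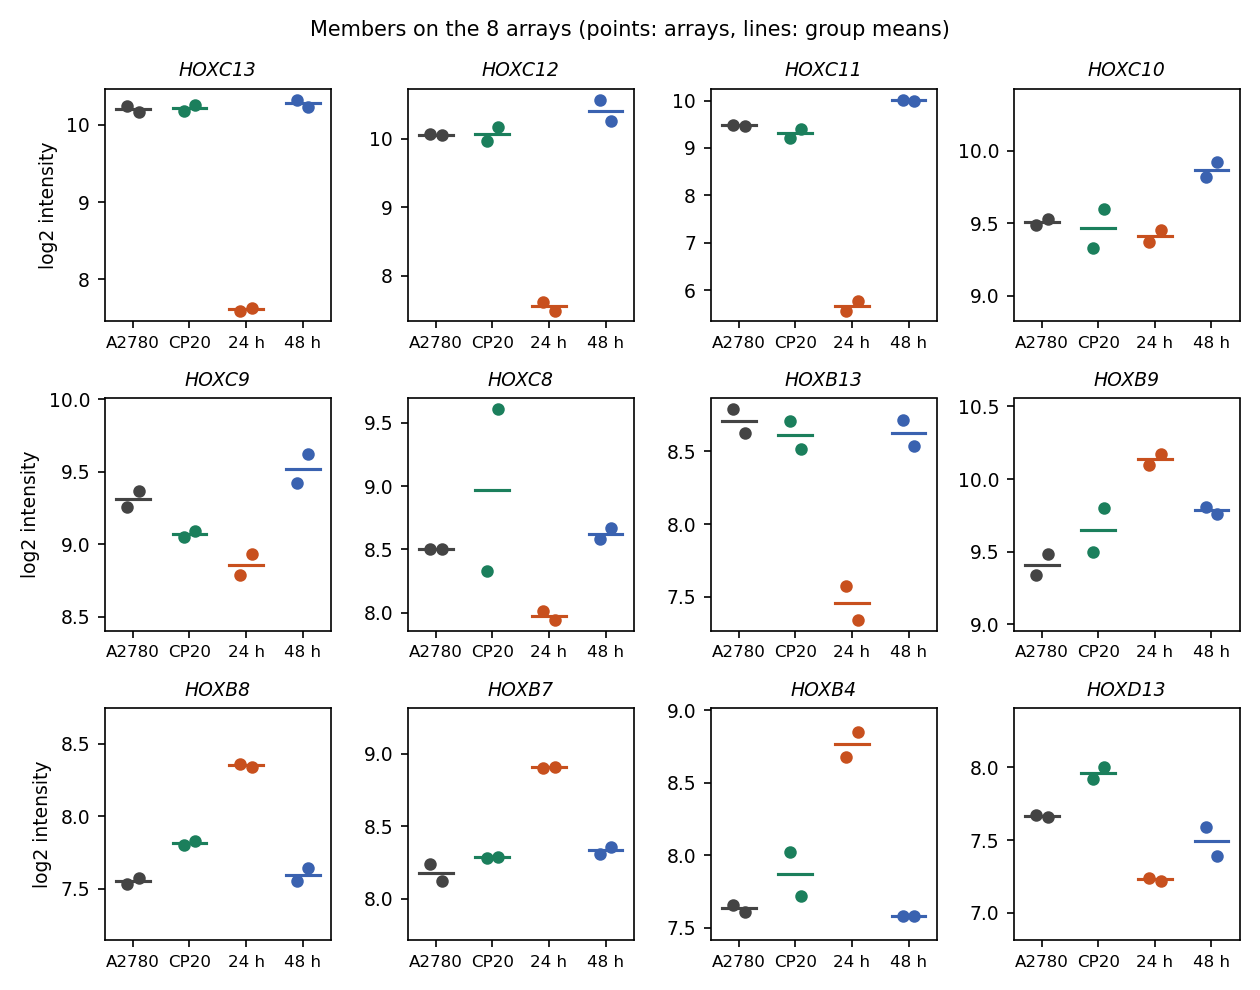
Log2 intensity of 12 HOX genes on each array (points) with group means (lines) for untreated A2780, A2780CP20 and temsirolimus at 24 h and 48 h. The vertical axes differ between panels and do not start at 0. HOXC13, HOXC12, HOXC11 and HOXB13 are lowest on the arrays labelled 24 h, HOXB4, HOXB7, HOXB8 and HOXB9 highest, and the A2780CP20 arrays are split in HOXC8.

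In A2780CP20 the HOX genes were close to the parent line. Against untreated A2780, 2 of 27 were called, where 18.4% of all genes were called, 6.37% higher and 12.0% lower. None of the 27 changed by 2-fold or more, against 0.679% of all genes. HOXB1, which acts in the hindbrain, measured 6.28 and 6.18 in A2780 and 6.83 and 6.58 in A2780CP20 (0.48 ± 0.13, adjusted p = 0.0326). HOXB6 measured 10.04 and 10.22 in A2780 and 9.66 and 9.82 in A2780CP20 (-0.39 ± 0.11, adjusted p = 0.0479). The groups did not overlap in either gene, but that held for 16 of the 27 HOX genes. Both calls lay near the threshold. With quantile normalization 3 genes were called, all higher (HOXB1, HOXB8 and HOXD13), and with median centring HOXB1 alone. The stromal markers called in A2780CP20 are given above, and their part in these results was not tested. Without both arrays labelled 24 h neither was called (adjusted p = 0.0513 for HOXB1 and 0.0664 for HOXB6).

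Leaving out 1 array at a time moved the count between 0 and 5. It was 0 without either array of untreated A2780 and without either array labelled 24 h, 1 without either array at 48 h, 2 different genes (HOXB9 and HOXC8) without replicate 1 of A2780CP20, and 5 without its replicate 2. The highest p without 1 array came without A2780 untreated replicate 2, at 0.17 for HOXB1 and 0.249 for HOXB6 (adjusted). HOXC11, HOXC12 and HOXC13 were at -0.17 ± 0.11, 0.01 ± 0.13 and 0.01 ± 0.09 and did not pass. In the HOXD cluster 7 of 9 genes had a difference between 0.21 and 0.29 and none was called by limma, with 1 (HOXD13, 0.29 ± 0.10, adjusted p = 0.071) at an unadjusted p under 0.05. HOXD3, HOXD8 and HOXD12 among these were dim. Of all 18417 genes, 6101 had an unadjusted p under 0.05 in this comparison.

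HOXC8 was the member on which the A2780CP20 arrays disagreed most. It measured 8.33 and 9.61 there, a gap of 1.28, while no HOX gene differed by more than 0.43 between the arrays of any other group. Its change of 0.47 ± 0.32 (95% interval -0.27 to 1.21, adjusted p = 0.348) became 1.11 without A2780CP20 untreated replicate 1 (adjusted p = 0.00533) and -0.17 without replicate 2. The median gap between the A2780CP20 arrays over the HOX genes was 0.19, against 0.17 over all genes. For 26 of 27 genes, all but HOXC8, the 95% interval lay inside a 2-fold change as measured. In the 5 genes that were dim on every array the interval bounds the intensity only.

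Set directly against A2780CP20, the arrays labelled 24 h gave 14 called HOX genes of 27, 4 higher and 10 lower, where 33.7% of all genes were called, 17.8% higher and 15.9% lower. Changes of at least 2-fold were called for 4 HOX genes, against 6.12% of all genes. HOXC11 was at least 9.61-fold lower (-3.63 ± 0.11 as measured), HOXC12 at -2.51 ± 0.13 and HOXC13 at -2.61 ± 0.09. HOXB13 was at -1.16 ± 0.12, HOXB4 at 0.89 ± 0.12 and HOXD13 at -0.73 ± 0.10. HOXC8 was called at -0.99 ± 0.32 (adjusted p = 0.0435), a call that ended without either array of A2780 (0.0706 each) or of the 24 h group (0.119 and 0.144) or of the 48 h group (0.069 each), and that stood at -1.64 without A2780CP20 untreated replicate 1 and at -0.36 without replicate 2. HOXB1, HOXB9, HOXC5, HOXD4 and HOXD8 also lost their calls without 1 of the 4 arrays compared (highest adjusted p = 0.169, for HOXD4 without A2780 temsirolimus 24 h replicate 2).

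MicroRNA genes lie inside the clusters, and the array reads their loci. MIR196A2 lies between HOXC10 and HOXC9, MIR196A1 between HOXB9 and HOXB13, and MIR10A between HOXB4 and HOXB5. The mature sequences from RefSeq are shown with the seed, bases 2 to 8, in capitals, because both MIR196A loci yield the same mature miR-196a-5p and 1 of them was called. Whether the changes of these loci differ was not tested.
hsa-miR-196a-5p: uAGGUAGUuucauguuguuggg
hsa-miR-10a-5p: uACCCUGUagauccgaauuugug
The MIR196A2 locus measured 7.33 and 7.61 in untreated A2780 and 6.66 and 6.78 in A2780CP20. It measured 5.96 and 5.98 at 24 h, and 7.13 and 7.47 after 48 h. It was lowest on the arrays labelled 24 h and next lowest in A2780CP20, with no overlap between these groups and the other 2. Its change was -1.50 ± 0.14 at 24 h (adjusted p = 7.04e-05), -0.75 ± 0.14 in A2780CP20 (adjusted p = 0.0088) and -0.17 ± 0.14 at 48 h (adjusted p = 0.702). The locus was dim at 24 h, and the difference there is at least 2.69-fold. In A2780CP20 the call ended without A2780 untreated replicate 2 (-0.61, adjusted p = 0.0721).

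The MIR196A1 locus, in the HOXB cluster, measured 7.17 and 7.41 in untreated A2780 and 7.48 and 7.71 at 24 h (0.31 ± 0.12, adjusted p = 0.103). The MIR10A locus, which was dim on every array, was at -0.33 ± 0.26 at 24 h and -0.68 ± 0.26 in A2780CP20 (adjusted p = 0.401 and 0.103). These probe sets read locus transcripts, and mature microRNA was not measured. Of the 25 noncoding RNAs of the clusters on the list 6 were measured. MIR196A2 was the 1 called at 24 h (16.7%, against 30.1% of all genes).

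HOX proteins bind DNA with cofactors of the PBX, MEIS and PKNOX families. Of 7 measured cofactors, 2 fell and 1 rose at 24 h (42.9%, against 30.1% of all genes; median change -0.14). MEIS2 measured 10.89 and 10.85 in untreated A2780 and 10.31 and 10.67 in A2780CP20. It measured 8.14 and 8.21 at 24 h, and 10.78 and 10.87 after 48 h. The arrays labelled 24 h again lay far below the rest, and its change was -2.69 ± 0.12 (6.48-fold lower, adjusted p = 8.66e-07). PBX3 fell by 0.77 (standard error 0.17, adjusted p = 0.00851) and MEIS1, which was dim in both groups, rose by 0.42 ± 0.11 (adjusted p = 0.0207). The PBX3 call ended when replicate 1 of untreated A2780 (adjusted p = 0.0613) or of the 24 h group (0.0508) was left out. That of MEIS1 ended when replicate 2 of untreated A2780 (0.138) or of the 24 h group (0.162) was. None of the 7 was called by limma at 48 h or in A2780CP20, where MEIS2 was at -0.38 ± 0.12 (adjusted p = 0.067). The shares of all genes called were 0.179% at 48 h and 18.4% in A2780CP20. Of the 7, none had an unadjusted p under 0.05 at 48 h and 2 did in A2780CP20. Of all 18417 genes, 2043 did at 48 h and 6101 in A2780CP20. MEIS2 was called there without A2780CP20 untreated replicate 2 (adjusted p = 0.00677).

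**Figure D4:**
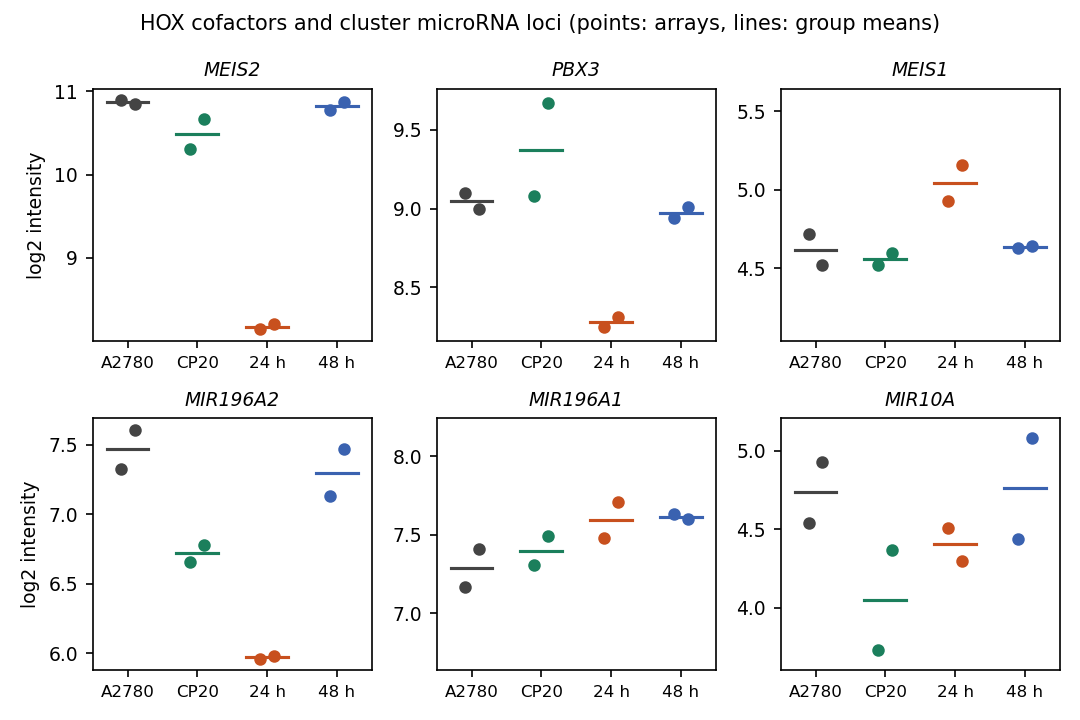
Log2 intensity of the cofactor genes MEIS2, PBX3 and MEIS1 and of the MIR196A2, MIR196A1 and MIR10A loci on each array (points) with group means (lines). The vertical axes differ between panels and do not start at 0. MEIS2, PBX3 and MIR196A2 are lowest on the arrays labelled 24 h, at 8.18, 8.28 and 5.97 on average.

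Polycomb genes, whose products repress HOX clusters, had 5 higher and 6 lower of 24 measured at 24 h, 3 higher and 4 lower in A2780CP20 and none called by limma at 48 h (5 there with an unadjusted p under 0.05). The shares called were 45.8% at 24 h and 29.2% in A2780CP20, against 30.1% and 18.4% of all genes. An unadjusted p under 0.05 at 48 h was found for 2043 of all 18417 genes. PCGF5, a subunit of a noncanonical Polycomb complex, was dim in untreated cells and at least 10.9-fold higher at 24 h (4.51 to 9.54 on average, adjusted p = 1.79e-08). PHC1 (-1.39 ± 0.10), JARID2 (-1.10 ± 0.09) and CBX2 (2-fold lower, adjusted p = 7.15e-05) fell. Genes of the Trithorax group and H3K27 demethylases had 1 higher and 3 lower of 17 at 24 h (23.5%, against 30.1% of all genes), and none called by limma at 48 h (2 with an unadjusted p under 0.05). KMT2A, which encodes the MLL methyltransferase that maintains HOX expression, fell by 1.08 (standard error 0.15, adjusted p = 0.000938), and MLLT3, dim in both groups, rose by 1.04 ± 0.15. The median change was -0.12 for Polycomb and -0.07 for Trithorax genes.

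In A2780CP20 the Trithorax list had 7 higher and 2 lower of 17, with a median of 0.24 against 0.03 for all genes. That is 52.9% called, where 18.4% of all genes were called, 6.37% higher and 12.0% lower. DOT1L was at 0.56 ± 0.11 (adjusted p = 0.00988), SETD1A at 0.55 ± 0.10 (0.00838) and MLLT1 at 0.50 ± 0.09 (0.00819), while KDM6A, an H3K27 demethylase gene, fell by 0.60 (standard error 0.11, adjusted p = 0.00819). These calls ended without 1 array of untreated A2780, at adjusted p values of 0.0696, 0.0628 and 0.0527 without replicate 1 for the first 3, and without replicate 2 at 0.0575 for MLLT1 and 0.0681 for KDM6A.

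Retinoic acid genes had 3 higher and 4 lower of 15 at 24 h, 1 higher in A2780CP20 and none called by limma at 48 h (none with an unadjusted p under 0.05 either), with medians of 0.04, 0.17 and -0.01. The shares called were 46.7% at 24 h and 6.67% in A2780CP20, against 30.1% and 18.4% of all genes. The 3 genes that rose were ALDH1A1, CRABP2 and RDH10. ALDH1A1, a retinaldehyde dehydrogenase, was dim in untreated cells and at least 5.03-fold higher at 24 h (5.46 to 8.41 on average). CRABP2, a carrier of retinoic acid to its receptors, went from 6.01 to 8.81 on average (2.79 ± 0.12) and was above the reference for dim signal on 1 of the 2 untreated arrays. RDH10, a retinol dehydrogenase, was at 2.27 ± 0.08 (4.81-fold higher). The receptor gene RARG fell by 1.09 (standard error 0.10, adjusted p = 6.01e-05). The gene called in A2780CP20 was CRABP2 (0.42 ± 0.12, adjusted p = 0.0397), and that call ended when any of the 4 arrays compared, or either array labelled 24 h, was left out (adjusted p = 0.0583 to 0.161).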

How the data were processed

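Total RNA of 8 cell line samples was hybridised to Affymetrix Human Gene 1.0 ST arrays. The deposited values, 1.80 to 14.99 with 2 decimals, were read as log2 intensities from their range. The submitters' processing notes name Partek, without version or role. How background was corrected and arrays normalized is not stated in these sources. Of 33297 probe sets, 19460 had 1 gene symbol in the platform annotation, 1754 several and 12083 none. The brightest such probe set stood for a gene, which left 18417 genes. Groups and replicate numbers came from the titles.

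limma 3.58.1 in R 4.3.3 was fitted with 1 coefficient per group to all 8 arrays (residual degrees of freedom 4, prior 4.48), with two-sided tests, p-values adjusted over all genes by Benjamini-Hochberg, and was tested on simulated data. There were 5 comparisons. The number of arrays limits the precision.

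All HOX genes were accounted for. Those called with a change of at least 2-fold and no overlap between arrays are given on every array, and further members on some. From each other list up to 4 called genes with the largest change, or, if none was called, 2 with the smallest p, could be named. The members and lists were chosen with earlier results of these data known. Alternatives were quantile normalization, median centring, a filter on the dimmest 25% of genes, other handling of probe sets, other priors, a replicate block, fewer groups in the fit and leaving out each array. RefSeq tables of assembly GRCh38.p14 gave sequences and gene order. The genome build of the array annotation is unstated.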

Additional observations from a re-analysis of the deposited data

Results flagged for a closer look

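For 10 of 27 HOX genes the difference from untreated A2780 was not the same at the 2 drug times. This is by the direct test of 48 h against 24 h (limma, adjusted over all genes, 2 arrays per group). That test called 31.0% of all genes. The log2 difference of 48 h minus 24 h was 4.33 as measured for HOXC11, which was dim at 24 h (adjusted p = 2.65e-08), 2.85 for HOXC12 (7.23e-07) and 2.67 for HOXC13 (1.4e-07). It was 1.17 for HOXB13 (adjusted p = 0.000157), 0.82 for HOXC5 (0.00156), 0.66 for HOXC9 (0.00164) and 0.46 for HOXC10 (0.0129). It was -1.18 for HOXB4 (adjusted p = 0.000112), -0.75 for HOXB8 (0.000242) and -0.57 for HOXB7 (0.00141). In each of these genes both arrays of 1 time lay above both arrays of the other, but that held for 19 of the 27 HOX genes. All 10 values rest on the arrays labelled 24 h, on which 9 of 10 stromal markers were also lower than at 48 h, and the part of that difference was not tested.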

How the results depend on the processing

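Over 18 alternatives no change of a called HOX gene reversed its direction. Of 37 calls among 135 gene results (27 genes in 5 comparisons), 26 stood under every alternative run and 11 ended under at least 1. Of 98 uncalled results, 16 were called under some alternative. The count for A2780CP20 against A2780 was the least steady: 2 in the fit reported, 3 with quantile normalization, 1 with median centring or a robust prior, 4 without the dimmest 25% of genes, and 0 with every probe set tested, with only the compared groups in the fit or without both arrays labelled 24 h. Without 1 array it ranged from 0 to 5. The causes were not tested. Without 1 array the counts were 9 to 13 at 24 h, 0 at 48 h, 9 to 13 for 48 h against 24 h and 10 to 14 for 24 h against A2780CP20. Over all genes, the count for A2780CP20 was 3388, with 974 to 5543 without 1 array and as few as 1022 under another setting. At 48 h it was 33, with 4 to 57 without 1 array and 23 to 68 otherwise. The highest ratio elsewhere was at 24 h against A2780CP20, with 6206 against 3995 without 1 array. At 24 h, 5551 genes compared with 3621 without 1 array, and for 48 h against 24 h 5702 with 3715.

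The replicate numbers were not shown to pair the arrays: the correlation of same-numbered deviations between groups ran from 0.00 to 0.18. With the replicate block the HOX counts were 2 for A2780CP20, 11 at 24 h, 0 at 48 h, 11 for 48 h against 24 h (HOXB9 added, -0.35, adjusted p = 0.0403) and 14 for 24 h against A2780CP20. HOXC11 at 24 h and the 5 genes that were dim on every array have no known signal over background, so small changes in them could not be resolved.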

Other observations

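Other homeobox genes moved on the arrays labelled 24 h too. Of 21 ParaHox and related genes 5 were lower and 1 higher there against untreated A2780 (28.6% called, against 30.1% of all genes). DLX1 and DLX2, neighbouring genes that pattern the forebrain and jaws, averaged 11.09 and 10.72 in untreated A2780 and 7.94 and 8.70 at 24 h (-3.15 ± 0.10 and -2.03 ± 0.18, adjusted p = 7.66e-08 and 5.1e-05, limma). MEOX1, a somite gene, rose by 0.95 ± 0.15. DLX3 was the gene of the list called at 48 h (0.70 ± 0.09, adjusted p = 0.0252), and that call ended when any of the 4 arrays compared (adjusted p = 0.169 to 0.344) or either array labelled 24 h (0.087) was left out.

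The genes that flank the HOX clusters gave 7 higher and 6 lower of 33 at 24 h and 1 higher and 9 lower in A2780CP20. The shares called were 39.4% and 30.3%, against 30.1% and 18.4% of all genes. SKAP1, beside HOXB1, was dim in untreated A2780 and at least 2.94-fold higher at 24 h, where GPR84, in the region of the HOXC cluster, was dim and at least 2.58-fold lower. In A2780CP20, TAX1BP1 and HIBADH, both on the HOXA side, were 1.99-fold and 1.89-fold lower (adjusted p = 0.00136 and 0.00145, limma), larger than the change of any HOX gene in that comparison. At 48 h none of the 33 was called by limma, and 3 had an unadjusted p under 0.05. So did 2043 of all 18417 genes.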
